A study of Mus musculus with 20 samples.

Results

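The interstitial collagen genes studied here were Col1a1, Col1a2, Col3a1, Col5a1, Col5a2, Col5a3, Col6a1, Col6a2 and Col6a3, which encode the chains of collagens I and III, the chains of collagen V and the main chains of collagen VI. They were taken by symbol from the first column of the deposited count files, under a rule that uses no measured value, and made up 9 of the 24062 genes listed. The list itself was drawn up with earlier results of these data known. All 9 had counts in every sample and passed the filter on low counts. The study measured RNA from whole lung of mice with and without arginase 2 (Arg2), an enzyme that splits arginine, in a model of pulmonary hypertension caused by chronic low oxygen. Wild type mice (Arg2+/+) and knockout mice (Arg2-/-), of the C57/129 strain and of both sexes, were 8 to 10 weeks old. Each genotype was kept for 28 days at 21% O2, called room air, or at 10% O2, called hypoxia. Each of the 4 groups, named here by genotype and air, held 4 samples. The labels do not say which part of Arg2 was deleted, whether each number was a separate animal, or which samples came from which sex. The p-values therefore measure the spread between these samples.

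Collagens I, III and V assemble into banded fibrils that carry tension in the lung's airway and vessel walls, pleura and alveolar septa. Collagen V sits inside collagen I fibrils, sets where they start and limits their width, while collagen VI forms a network of beaded filaments that links fibrils to cells and basement membranes. Fibroblasts and other mesenchymal cells make most of them, and chronic hypoxia is known for thickening the walls of pulmonary arteries, with matrix laid down around them.

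In the GRCm38 assembly, with GENCODE annotation, several of the genes were neighbours. Col3a1 (chr1:45311538-45349706, plus strand) and Col5a2 (chr1:45374321-45503282, minus strand) lay tail to tail, 24614 bases apart. Col6a2 (chr10:76595762-76623630) and Col6a1 (chr10:76708792-76726168) lay on the minus strand, 85161 bases apart. The other members were Col1a1 (chr11:94936224-94953042, plus strand), Col1a2 (chr6:4504814-4541544, plus strand), Col5a1 (chr2:27886425-28039514, plus strand), Col5a3 (chr9:20770050-20815067, minus strand) and Col6a3 (chr1:90765923-90843971, minus strand).

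Promoter sequence is shown for Col3a1 and Col5a1, fibrillar genes called lower together in hypoxic knockout lung whose start regions differ in base composition. RefSeq promoter windows on GRCm38.p6 were matched for 7 of the 9 members. The 150 bases before each RefSeq start are printed 5′ to 3′ in the direction of the gene, and neither stretch overlapped an untranslated region annotated by GENCODE. The motifs searched, on either strand, were CCAAT, the GC box GGGCGG, the hypoxia response core (ACGTG or GCGTG), and CAGAC, a short motif bound by SMAD factors. Capitals mark their matches. The stretches are chr1:45311388-45311537 (plus strand) for Col3a1 and chr2:27886275-27886424 (plus strand) for Col5a1.
Col3a1: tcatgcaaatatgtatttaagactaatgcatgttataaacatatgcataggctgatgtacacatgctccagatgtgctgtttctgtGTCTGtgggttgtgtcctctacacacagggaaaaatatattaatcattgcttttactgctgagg
Col5a1: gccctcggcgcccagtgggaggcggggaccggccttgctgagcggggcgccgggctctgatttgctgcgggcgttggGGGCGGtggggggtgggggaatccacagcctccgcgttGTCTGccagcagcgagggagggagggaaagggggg

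Over the full 250 bases before the start, the Col3a1 window held 2 SMAD motifs and no match of the other kinds, and its GC content was 35.2%. The Col5a1 window, with a GC content of 76.4%, held 2 GC boxes, 1 hypoxia response core and 1 SMAD motif. The windows of the neighbours Col6a1 and Col6a2 also differed, but in number too. The 1 window of Col6a1 matched none of the 4 motifs, and the 2 windows of Col6a2 held 4 GC boxes, 1 hypoxia response core and 1 SMAD motif. Of the 150 bases nearest the start, 124 in the Col6a1 window and all 150 in 1 Col6a2 window overlapped annotated untranslated regions. The other Col6a2 window had no such overlap there and held 1 of the GC boxes, at -175 to -170, and the SMAD motif. Of 32851 RefSeq promoter windows of the same length, 33.9% held CCAAT, 32.7% a GC box, 38.6% a hypoxia response core and 42.2% a SMAD motif, so each was common. A match describes the letters in the window and shows no binding.

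Total counts in genes ranged from 9531270 (wild type room air 3) to 63331530 (knockout room air 3), at which 3 counts correspond to 0.315 and 0.0474 CPM, the count per 1000000 counts of the library. CPM values were computed on library sizes scaled by edgeR's trimmed mean of M values. The counts of members ran from 16, for Col5a3 in wild type room air 3, to 36213, for Col3a1. Wild type hypoxia 4 stood apart, with 19.9% of its gene counts in the ribosomal precursor Rn45s against 0.518 to 1.33% in the other 15 samples. Sample 3 of wild type room air, sample 1 of wild type hypoxia and sample 3 of knockout hypoxia had a low share of reads assigned to genes (25.4, 35.5 and 37.7%). The 5 samples that held genes of other organs (skeletal muscle, heart, thymus or pancreas) were wild type room air 1, knockout room air 3 and 4, and knockout hypoxia 1 and 2. Summed lung markers (Sftpc, Sftpb, Ager, Scgb1a1 and Hopx) reached 27772 to 37454 CPM, and bone markers at most 0.209 CPM. Arg2 itself was 9.18 ± 1.92 CPM in wild type and 5.62 ± 1.47 CPM in knockout room air (SD, n = 4), where the difference was not called (adjusted p = 0.0842). In hypoxia it was 9.30 ± 2.25 CPM in wild type and 4.28 ± 0.911 CPM in knockout (adjusted p = 0.00191), so the knockout samples retained Arg2 counts.

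**Figure D1:**
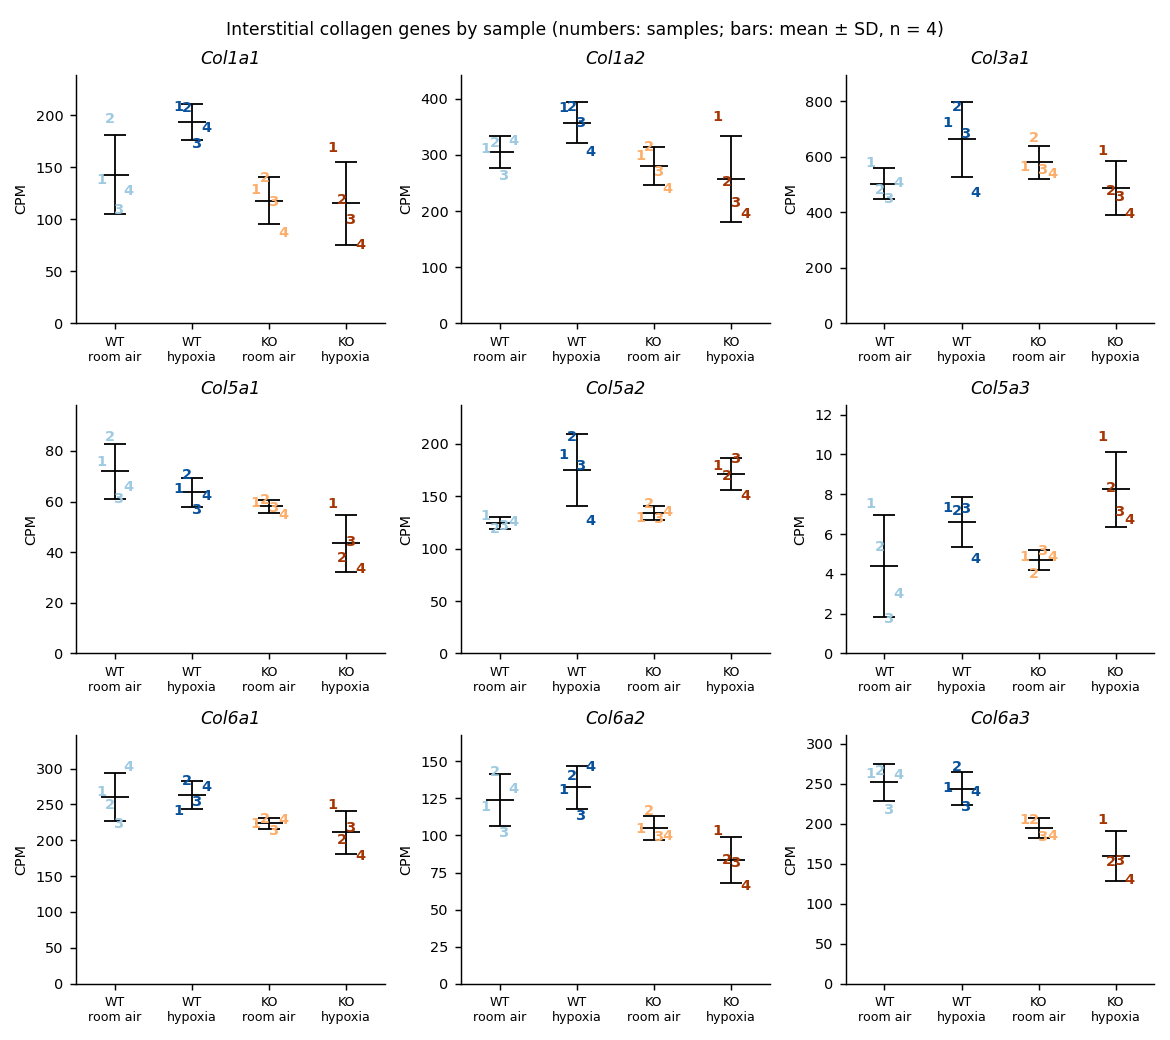
CPM (y axis, from 0) of the 9 collagen genes in each of the 16 samples, by group (x axis; WT, wild type; KO, knockout). Digits are sample numbers and bars are the mean ± SD of 4 samples. In hypoxia, every knockout sample lay below every wild type sample for Col1a1, Col6a2 and Col6a3, and Col5a2 overlapped between genotypes.

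Per kilobase of the longest coding transcript, Col3a1 had the highest level in all 4 groups, at 90.4 ± 9.92 CPM per kb in wild type room air. Col6a1 (63.5 ± 8.13 CPM per kb) and Col1a2 (57.1 ± 5.39) came next there and lay within their spread of each other. Col6a2 (26.6 ± 3.78), Col6a3 (24.9 ± 2.28) and Col1a1 (24.1 ± 6.39) formed a lower tier that did not separate beyond its spread. Col5a2 (18.8 ± 0.816) was within the spread of Col1a1, and Col5a1 (8.56 ± 1.29) and Col5a3 (0.717 ± 0.419) were the lowest, as in the other 3 groups. In knockout hypoxia Col5a2 (25.8 ± 2.27 CPM per kb) stood above the means of Col1a1 (19.4 ± 6.73), Col6a2 (17.9 ± 3.30) and Col6a3 (15.9 ± 3.11). Together, the 9 genes summed to 1788 ± 163 CPM (room air) and 2099 ± 228 CPM (hypoxia) with the wild type genotype, and to 1698 ± 137 and 1537 ± 309 CPM without Arg2 (SD, n = 4).

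The 9 genes were lower in hypoxic knockout lung than in hypoxic wild type lung more often than in any other comparison of 2 groups. With edgeR's quasi-likelihood test and Benjamini-Hochberg adjustment over all 15766 genes tested, 7 of 9 were called lower in the knockout in hypoxia at an adjusted p under 0.05, and none higher. The background there was large, as 23.0% of all genes tested were called and 12.1% were called lower. The median log2 fold change of the 9 genes was -0.48, against -0.01 for all genes. Samples of the 2 groups did not overlap for 3 of the 9, where 25.4% of all genes had groups that did not overlap.

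Fewer members moved with oxygen. In wild type lung 1 of 9, Col5a2, was called higher in hypoxia, where 4.98% of all genes were called and 2.67% called higher. No member had groups that did not overlap, against 8.23% of all genes, and the median log2 fold change was 0.23 (all genes, -0.01). In knockout lung Col5a2 was called higher and Col5a1 lower, where 17.0% of all genes were called, 7.93% higher and 9.1% lower. Col5a2 and Col5a3 had groups that did not overlap there (24.3% of all genes), and the median was -0.12 (all genes, 0.00).

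In room air no member was called between genotypes, where 0.0761% of all genes were called. An unadjusted p under 0.05 was found for 3 of the 9, and for 3408 of the 15766 genes tested. DESeq2 called 1 of the 9 there and limma voom 0. Col5a1 and Col6a3 had groups that did not overlap, both lower in the knockout (10.4% of all genes). The test of whether hypoxia acted differently in the knockout also called none of the 9, where 0.501% of all genes were called. In that test 2 of the 9 had an unadjusted p under 0.05, and so did 2225 of the 15766 genes. Its member median was -0.23, against 0.00 for all genes. With DESeq2 and limma voom the number of members called in that test was also 0. The tests share groups: every group enters 2 of the comparisons of 2 groups and also the difference of hypoxia effects. Their results are therefore not independent.

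**Figure D2:**
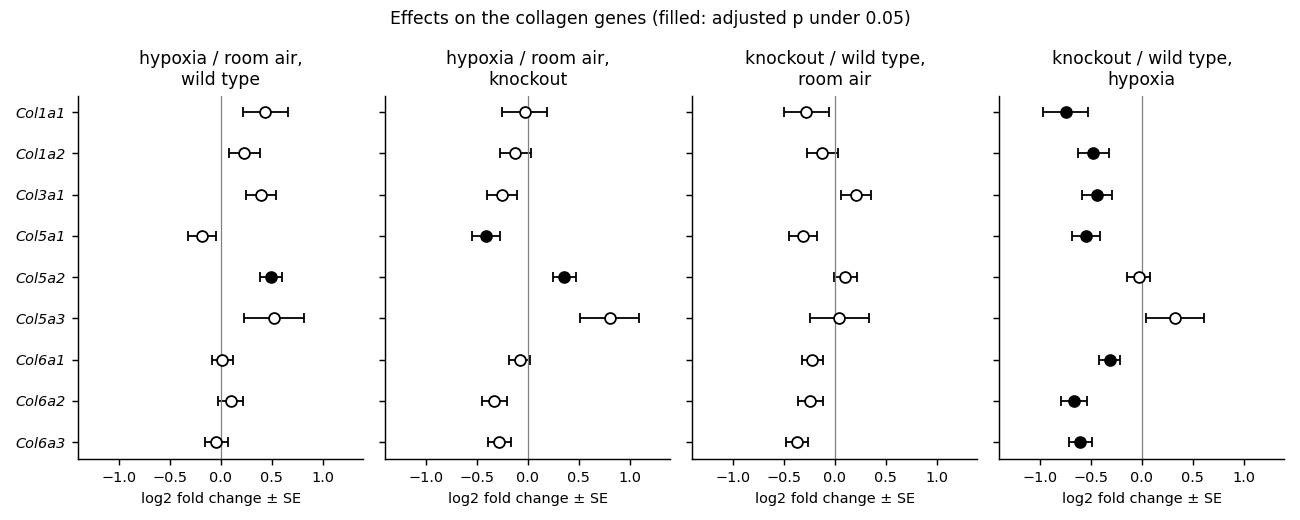
Log2 fold change ± SE (x axis) of each collagen gene (y axis) in 4 comparisons, from 4 against 4 samples in 1 edgeR fit. Filled points had an adjusted p under 0.05: Col5a2 in both oxygen comparisons, Col5a1 in the knockout, none between genotypes in room air, and 7 genes in hypoxia.

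Col1a1 and Col1a2 encode the chains of collagen I, the most abundant fibrillar collagen of tendon, bone and fibrotic lung. Col1a1 was 138, 197, 109 and 127 CPM in wild type room air 1 to 4 and 208, 207, 172 and 188 CPM in wild type hypoxia. In the knockout it was 128, 139.8, 116 and 87.2 CPM in room air and 169, 118, 99.0 and 74.9 CPM in hypoxia. Every hypoxic wild type sample was above every hypoxic knockout sample, although knockout hypoxia 1 came within a few CPM of wild type hypoxia 3. Col1a1 was lower in the knockout in hypoxia (-40.4%; log2 fold change -0.75 ± 0.22, SE; adjusted p = 0.0262). The difference of wild type hypoxia from room air, 0.44 ± 0.22 on the log2 scale, was not called (adjusted p = 0.353), and wild type room air 2 overlapped the hypoxic samples. Without wild type hypoxia 4 the genotype difference in hypoxia was -0.76 and missed the threshold (adjusted p = 0.0528). It also missed it without wild type hypoxia 1 or 2, or without knockout hypoxia 2, 3 or 4 (adjusted p = 0.0508 to 0.0734).

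Col1a2 was 311, 322, 263 and 325 CPM in wild type room air, and 383, 386, 356 and 306 CPM after wild type hypoxia. The knockout had 298, 315, 269 and 239 CPM in room air and 367, 252, 214 and 195 CPM in hypoxia. Knockout hypoxia 1 lay among the wild type samples, while the other 3 hypoxic knockout samples were below all of them. Col1a2 was called lower in the knockout in hypoxia (-0.48 ± 0.15; adjusted p = 0.0335). Its oxygen effects were 0.23 ± 0.15 in wild type and -0.12 ± 0.15 in knockout, and neither was called. Without the 5 samples with genes of other organs, which leaves 2 samples in each knockout group, the knockout effect was -0.58 and called (adjusted p = 0.0275). Col1a1 there was -0.63 without those samples (adjusted p = 0.123), against -0.03 with all samples.

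Col3a1 encodes collagen III, which mixes with collagen I in distensible tissue such as vessel walls and lung. It was 578, 481, 448 and 506 CPM in wild type room air and 723, 779.5, 682 and 468 CPM in wild type hypoxia, where sample 4, the one rich in Rn45s, was the lowest. The knockout had 563, 669, 552 and 538 CPM in room air and 622, 477, 457 and 393 CPM in hypoxia. The wild type mean was higher in hypoxia and the knockout mean lower, with overlapping samples in each. Neither oxygen effect was called (0.40 ± 0.15, adjusted p = 0.153 in wild type; -0.25 ± 0.15, adjusted p = 0.275 in knockout). Without wild type hypoxia 4 the wild type effect was 0.54 and passed the threshold (adjusted p = 0.0170). Without the 5 samples with genes of other organs the knockout effect was -0.54 and was not called (adjusted p = 0.126). The difference between these effects, -0.65 ± 0.21, was the widest of the 9 and was not called (unadjusted p = 0.00594, adjusted p = 0.152). In hypoxia Col3a1 was lower in the knockout (-0.44 ± 0.15; adjusted p = 0.0376).

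In knockout lung, hypoxia went with a higher level of the collagen V chain Col5a2 and a lower level of Col5a1. Col5a1 and Col5a2 encode the chains of the widespread form of collagen V, and Col5a3 a chain found in fewer tissues. Col5a2 was 131, 119, 122 and 126 CPM in wild type room air and 189, 206, 179 and 126 CPM in wild type hypoxia. In the knockout it was 129, 143, 128 and 135 CPM in room air and 179, 169.7, 185 and 151 CPM in hypoxia, with all hypoxic samples above all room air samples. In wild type, sample 4 was at the room air level and the other 3 hypoxic samples were higher. Col5a2 was called higher in hypoxia in wild type (0.49 ± 0.11; adjusted p = 0.0127) and in knockout (0.36 ± 0.11; adjusted p = 0.0338). Without wild type hypoxia 4 the wild type effect was 0.62 (adjusted p = 9.68e-05), and without wild type hypoxia 1 it was 0.45 and missed the threshold (adjusted p = 0.0527). It also missed it with the compared groups only (adjusted p = 0.0843), without the 5 samples with genes of other organs (0.0727) and without the 3 samples of low assignment (0.0876). In hypoxia the genotypes differed in Col5a2 by -0.03 ± 0.11 (adjusted p = 0.863), with an interval of 2 SE of -0.26 to 0.19.

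Col5a1 was 75.8, 85.4, 61.1 and 65.7 CPM in wild type room air and 65.1, 70.3, 56.6 and 62.4 CPM in wild type hypoxia. Its knockout values were 59.4, 60.8, 57.4 and 54.7 CPM in room air and 59.0, 37.7, 43.9 and 33.5 CPM in hypoxia. All room air knockout samples were below all room air wild type samples, and 3 of the 4 hypoxic knockout samples were lower again. Col5a1 was called lower in hypoxia in the knockout (-0.42 ± 0.14; adjusted p = 0.0464) and lower in the knockout in hypoxia (-0.55 ± 0.14; adjusted p = 0.0104). In wild type its oxygen effect was -0.18 ± 0.14 (adjusted p = 0.583). The 2 calls with hypoxia in knockout lung were close to the threshold. Col5a1 missed it (adjusted p up to 0.159) when any 1 of the 4 room air knockout samples was left out, or without knockout hypoxia 2, 3 or 4, and at 0.0515 to 0.0571 without sample 1 or 4 of wild type room air or sample 1, 3 or 4 of wild type hypoxia. Col5a2 missed it (adjusted p up to 0.101) without knockout room air 1, 3 or 4 or knockout hypoxia 1, 2 or 3. Col5a2 also missed it without the 5 samples with genes of other organs (0.31, adjusted p = 0.385), without the 3 samples of low assignment (adjusted p = 0.105) and with upper quartile scaling (adjusted p = 0.0554). Col5a1 missed it without those 3 samples (adjusted p = 0.0933), with the compared groups only (0.0742) and with the A libraries only (0.0537).

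Col5a3 had the lowest counts of the 9. It was 7.50, 5.36, 1.72 and 2.97 CPM in room air and 7.30, 7.15, 7.26 and 4.74 CPM in hypoxia among wild type samples. Knockout samples had 4.85, 3.98, 5.17 and 4.84 CPM in room air and 10.9, 8.31, 7.12 and 6.69 CPM in hypoxia. Every hypoxic knockout sample was above every room air knockout sample, and the wild type groups overlapped. The effect of hypoxia in the knockout was 0.80 ± 0.29 and was not called (adjusted p = 0.0646), and in wild type it was 0.52 ± 0.29 (adjusted p = 0.411). The knockout effect was called with DESeq2 (0.80, adjusted p = 0.0273), limma voom (0.74, adjusted p = 0.0409), the compared groups only (0.79, adjusted p = 0.00401) and without the 3 samples of low assignment (0.86, adjusted p = 0.0356). Without the 5 samples with genes of other organs it was 0.63 (adjusted p = 0.355). Between genotypes in hypoxia it was 0.32 ± 0.29, the only positive value of the 9 (adjusted p = 0.439; interval of 2 SE -0.25 to 0.90).

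The 3 collagen VI chains were called lower in the knockout in hypoxia, and none was called with oxygen in the fit of the 4 groups with no other term. Col6a1, Col6a2 and Col6a3 encode the chains that make up the common form of collagen VI. Col6a3 was 263, 266, 217 and 261 CPM in wild type room air and 245, 271, 221 and 239.9 CPM in wild type hypoxia. In the knockout it was 205, 205, 183 and 185 CPM in room air and 204, 153, 153 and 130.3 CPM in hypoxia. All knockout samples were below all wild type samples kept at the same oxygen. It was called lower in the knockout in hypoxia (-0.61 ± 0.11, -34.3%; adjusted p = 0.00153). In room air the difference of -0.37 ± 0.11 was not called (adjusted p = 0.0817), but passed without wild type room air 3, the shallowest sample (-0.44; adjusted p = 0.0167), and with DESeq2 (adjusted p = 0.0343).

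Col6a2 was 119, 143, 102 and 131 CPM in room air and 131, 140.3, 113 and 146 CPM in hypoxia among wild type samples. The knockout samples had 104, 117, 99.2 and 99.4 CPM in room air and 103, 83.7, 81.3 and 65.6 CPM in hypoxia. In hypoxia the genotypes did not overlap, and Col6a2 was lower in the knockout (-0.67 ± 0.12, -37.0%; adjusted p = 0.00164). Col6a1 was 268, 249.6, 222 and 302 CPM in room air and 241, 283, 253 and 274 CPM in hypoxia among wild type samples. The knockout samples had 222, 229.8, 213 and 228 CPM in room air and 249.5, 201, 217 and 178 CPM in hypoxia. Knockout hypoxia 1 lay within the wild type range and the other 3 below it. Col6a1 was called lower in the knockout in hypoxia (-0.31 ± 0.10; adjusted p = 0.0325), and without wild type hypoxia 4 it missed the threshold (-0.29; adjusted p = 0.0728). It also missed it without wild type hypoxia 2 or 3, or without knockout hypoxia 2, 3 or 4 (adjusted p = 0.0525 to 0.123). In wild type the oxygen effects were 0.01 ± 0.10 for Col6a1 (interval of 2 SE -0.19 to 0.22), 0.10 ± 0.12 for Col6a2 (-0.15 to 0.34) and -0.05 ± 0.11 for Col6a3 (-0.27 to 0.18). In the knockout those of Col6a2 (-0.33 ± 0.12; adjusted p = 0.0756) and Col6a3 (-0.28 ± 0.11; adjusted p = 0.0932) were negative and not called. Without knockout hypoxia 1, which held 998 summed CPM of pancreas genes, both passed (-0.45, adjusted p = 0.0160 for Col6a2; -0.42, adjusted p = 0.00574 for Col6a3). Both were also called with the GC trend removed (-0.32, adjusted p = 0.0203 for Col6a2; -0.27, adjusted p = 0.0383 for Col6a3). Col6a3 was called as well without the 5 samples with genes of other organs (-0.54, adjusted p = 0.0350), where Col6a2 was -0.59 (adjusted p = 0.0557).

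The genotype difference in hypoxia was not equally firm for all 7 genes. Between genotypes, fold changes followed the GC content of the transcript. Tested genes of up to 45% GC had a median log2 fold change of 0.19 in hypoxia, and those of 55 to 60% GC a median of -0.14. The members' transcripts ranged from 49.7% GC (Col5a2) to 61.6% (Col5a3), against a median of 50.1% over the tested genes. With the trend removed, Col1a1 (-0.64), Col5a1 (-0.42), Col6a2 (-0.54) and Col6a3 (-0.50) were still called, and Col1a2 (-0.36, adjusted p = 0.0626), Col3a1 (-0.36, adjusted p = 0.0737) and Col6a1 (-0.19, adjusted p = 0.106) were not. Without the 5 samples that held genes of other organs, 6 were called and Col6a1 was not (-0.42, adjusted p = 0.0556). Without the 3 samples of low assignment, 4 were called, namely Col5a1, Col6a1, Col6a2 and Col6a3. With that and the trend removed together, Col6a2 and Col6a3 were called. The number called was 3 without wild type hypoxia 2 or without knockout hypoxia 2, 3 or 4, 4 without wild type hypoxia 1 or 3, 5 without wild type hypoxia 4, and 7 without knockout hypoxia 1.

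**Figure D3:**
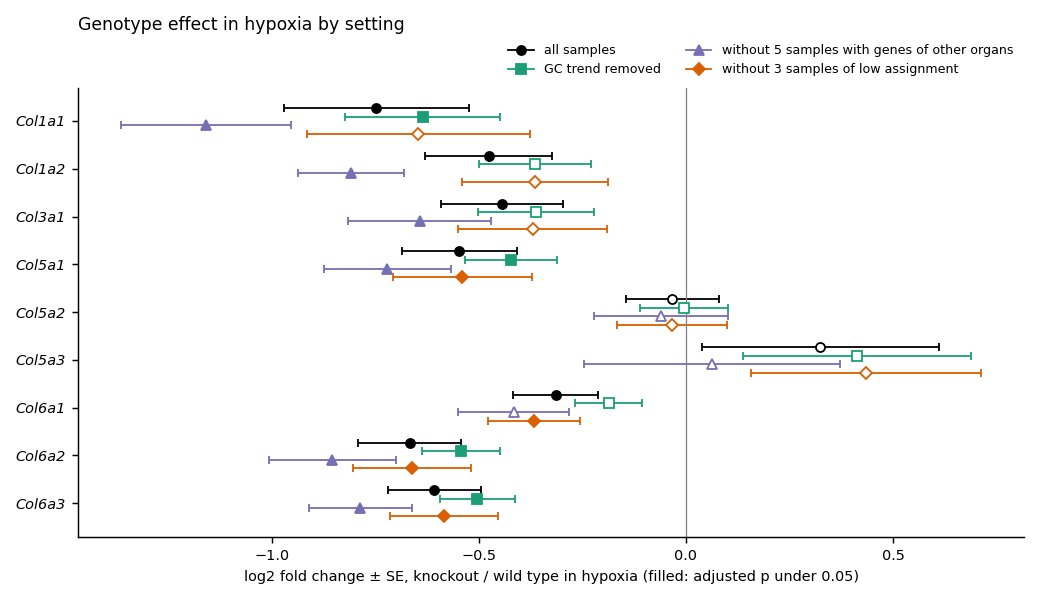
Log2 fold change ± SE (x axis) of each collagen gene (y axis), knockout over wild type in hypoxia, with all 16 samples, with the GC trend removed, without 5 samples that held genes of other organs, and without 3 samples of low assignment. Filled points had an adjusted p under 0.05; Col6a2 and Col6a3 were filled in all 4 settings, and Col5a2 lay near 0 in all 4.

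Ratios of chains within a sample do not depend on library scaling. The 6 pairs of chains, in 4 comparisons, gave 24 exact two-sided permutation tests of log2 ratios of counts, for which 4 against 4 samples cannot give a p below 0.0286. After adjustment over the 24 the smallest value was 0.0686, so none was called, and 10 of the 24 had groups that did not overlap. The share of other gene pairs without overlap was not computed. For single genes, 8.23 to 25.4% of all tested had groups that did not overlap in these comparisons. The 24 tests share genes and groups, so they are not independent. The ratio of Col5a1 to Col5a2 was -0.79, -0.48, -0.99 and -0.94 in wild type room air and -1.54, -1.55, -1.66 and -1.01 in wild type hypoxia. In the knockout it was -1.12, -1.23, -1.16 and -1.30 in room air and -1.60, -2.17, -2.08 and -2.17 in hypoxia. Every hypoxic sample was below every room air sample of its genotype. The mean difference was -0.64 ± 0.19 (log2, SE) in wild type and -0.80 ± 0.14 in knockout, each with an exact p of 0.0286 and an adjusted p of 0.0686. Per length, Col5a1 stood at 0.453 of Col5a2 in room air in wild type and at 0.197 in hypoxia in the knockout.

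The ratio of Col5a3 to Col5a1 was -3.28 ± 0.32 in wild type hypoxia and -2.39 ± 0.19 in knockout hypoxia (log2, SD, n = 4), higher in 4 of 4 knockout samples. The ratio of Col6a1 to Col6a2 was 0.99 ± 0.13 in wild type and 1.35 ± 0.09 in knockout hypoxia, and that of Col6a3 to Col6a1 was -0.11 ± 0.11 and -0.41 ± 0.09. Both pairs of groups did not overlap (exact permutation p = 0.0286, adjusted p = 0.0686 for each). The ratio of Col1a1 to Col1a2 was -0.88 ± 0.14 in wild type and -1.17 ± 0.14 in knockout hypoxia, also without overlap. Per length it was 0.489 and 0.399, and it was 0.413 and 0.376 in room air.

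**Figure D4:**
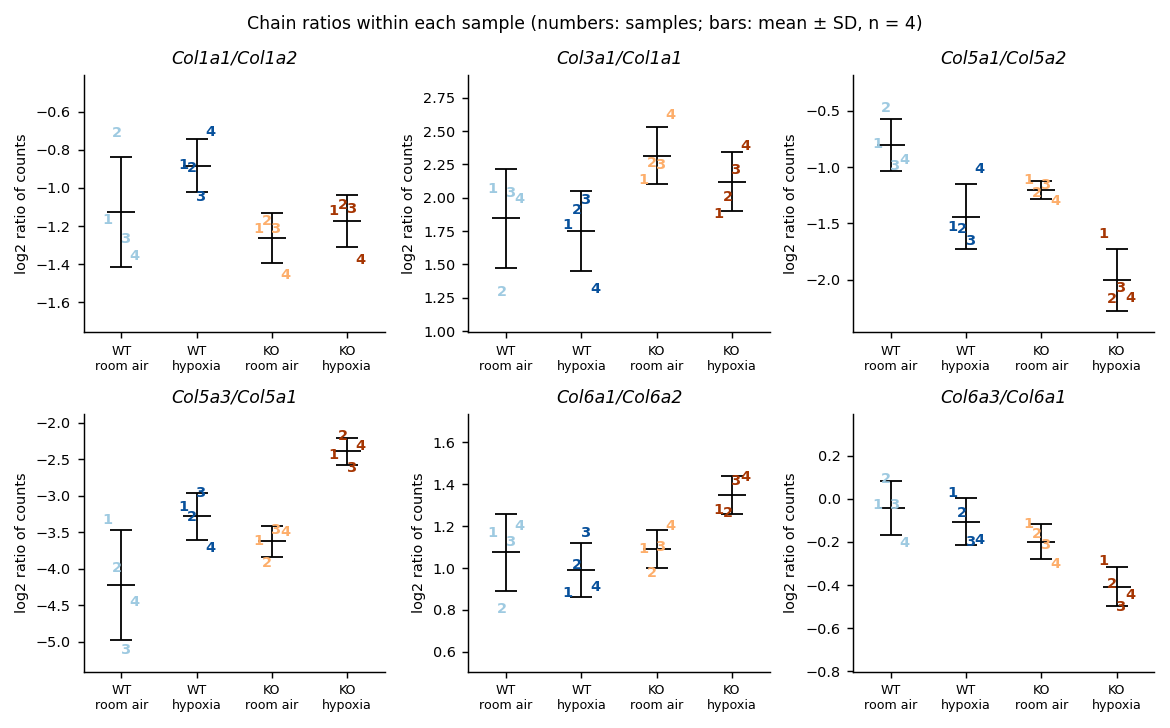
Log2 ratio of counts (y axis) of 6 pairs of collagen chains in each sample, by group (x axis; WT, wild type; KO, knockout); digits are sample numbers and bars are the mean ± SD of 4 samples. The ratio of Col5a1 to Col5a2 was below -1 in every hypoxic sample and in every knockout room air sample. On average it was lowest in knockout hypoxia.

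Over the 16 samples the members correlated unequally, given as a description since samples of one group share its genotype and oxygen. Pearson's r of log2 CPM was 0.95 between Col6a2 and Col6a3, 0.94 between Col5a1 and Col6a3 and 0.91 between Col1a1 and Col1a2. The neighbours Col3a1 and Col5a2 had an r of 0.51, or 0.84 on deviations from the group means. Col5a1 and Col5a2 had an r of -0.29, or 0.32 on such deviations. Of all genes with a mean of at least 1 CPM, those most like the members' mean standardised level were Cercam (r = 0.92), a relative of collagen galactosyltransferases, Abcb8 (0.91), a mitochondrial transporter, and Fbln1 (0.90), an extracellular fibulin. Arhgef10, Psap, Itfg3, Capn1, Slc12a9, Polr2e and Dact1 followed, with r from 0.89 down to 0.87.

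Genes that process collagen were called in both directions in hypoxia between genotypes. Values in brackets are log2 fold changes ± SE, each with an adjusted p under 0.05 in the edgeR fit. The shares of all genes called, given above, are the background of these counts. Of the genes named by the rule from these lists, 15 of 21 kept their call between genotypes in hypoxia in all 28 alternatives, 10 of 14 with hypoxia in wild type and 7 of 18 with hypoxia in knockout. Without the 5 samples with genes of other organs 2, 4 and 11 of them lost it, and none changed sign in any alternative. Those lost were Lox and Timp3 between genotypes, and Plod1, Sparc, Col18a1 and Ctsk with hypoxia in wild type. With hypoxia in knockout they were Serpinh1, Loxl2, Tll1, Sparc, Bgn, Antxr2, Itga1, Lair1, Tgfbr2, Nfyb and Smad3. Of 18 genes for procollagen folding and hydroxylation, 8 were called higher and none lower with hypoxia in the knockout, and 1 higher and none lower in wild type. Between genotypes in hypoxia 6 were higher and 3 lower, with a median log2 fold change of 0.01, against -0.01 for all genes. Plod1, a lysyl hydroxylase, rose in the knockout from 47.6 ± 5.63 to 96.5 ± 8.71 CPM (1.02 ± 0.10; edgeR adjusted p = 1.43e-06) and in wild type from 46.3 ± 4.04 to 59.9 ± 6.40 CPM (0.38 ± 0.10; adjusted p = 0.0350). P4ha2, a prolyl hydroxylase subunit, rose in the knockout from 51.5 ± 6.85 to 94.7 ± 10.4 CPM. The rises of P4ha2 (0.76 ± 0.16; adjusted p = 0.0356) and Plod1 (0.65 ± 0.14; adjusted p = 0.0455) were greater in knockout than in wild type by the test of that difference. These differences held in 14 (P4ha2) and 8 (Plod1) of 27 alternatives, with adjusted p up to 0.161 and 0.227. In the pathway lists that follow, the test of that difference called no gene. Serpinh1, a collagen-specific chaperone, was 779 ± 61.8 against 389.5 ± 62.4 CPM in knockout against wild type hypoxia (1.00 ± 0.16; adjusted p = 0.000514).

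Of 12 genes for propeptide removal and crosslinking, 4 rose and 1 fell with hypoxia in wild type, and 3 rose and 2 fell in knockout. Lox, the lysyl oxidase behind many collagen crosslinks, went up from 40.8 ± 12.8 to 104 ± 12.2 CPM in wild type and from 79.4 ± 8.62 to 150.2 ± 14.5 CPM in knockout. Lox was also called higher in knockout room air than in wild type room air (0.98 ± 0.16; adjusted p = 0.0273). That call held in 17 of 28 alternatives. It was lost without the 5 samples with genes of other organs (1.01; adjusted p = 0.358), with the compared groups only, and without each of samples 1, 2 and 4 of wild type room air, sample 3 of wild type hypoxia, the 4 room air knockout samples and knockout hypoxia 2. Loxl2, of the same family, rose in both genotypes (0.64 ± 0.12 and 0.63 ± 0.12), and Tll1, a relative of the protease that removes C-propeptides, fell in both (-0.76 ± 0.12 and -0.60 ± 0.12). In hypoxia Lox was higher and 3 genes were lower in the knockout. The latter included Pcolce, an enhancer of C-propeptide removal (-0.42 ± 0.08; adjusted p = 0.00189), and Loxl1, an oxidase of elastic fibres (-0.61 ± 0.13; adjusted p = 0.00359).

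Among 13 regulators of fibrils, 3 rose and 2 fell with hypoxia in wild type, and 5 rose in knockout. Aspn, a small leucine-rich proteoglycan that binds collagen, rose from 20.5 ± 7.59 to 49.4 ± 11.2 CPM in wild type and from 31.8 ± 1.88 to 106 ± 12.3 CPM in knockout. Sparc, a collagen-binding matricellular protein, rose in both (0.45 ± 0.09 and 0.57 ± 0.09), Bgn rose in knockout (0.47 ± 0.12) and Thbs1, a thrombospondin, fell in wild type (-0.97 ± 0.18). Without the 5 samples with genes of other organs the knockout effect of Bgn was 0.23 (adjusted p = 0.469). Between genotypes in hypoxia 1 was higher, Aspn, and 4 were lower, with Tgfbi (-0.52 ± 0.12) and Prelp (-0.51 ± 0.14) leading.

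The list headed fibril-associated collagens also held Col15a1 and Col18a1, which belong to vascular and epithelial basement membrane zones. Of its 6 genes tested, these 2 rose in wild type hypoxia (0.98 ± 0.19 and 0.44 ± 0.12). None was called in knockout, and the test of the difference of hypoxia effects called none of the 6. The wild type call of Col18a1 held in 17 of 28 alternatives (adjusted p up to 0.158). In hypoxia Col15a1, Col16a1 and Col18a1 were lower in the knockout (-0.80 ± 0.19, -0.51 ± 0.13 and -0.52 ± 0.12), and 1 was higher; the median of the 6 was -0.41. Of 5 other fibrillar chains 3 were tested (Col11a2, Col24a1 and Col27a1) and none was called in any of the 5 tests. Col27a1 was the highest of these, at 14.0 ± 1.58 against 16.9 ± 5.12 CPM in wild type hypoxia against room air. Col6a4, Col6a5 and Col6a6, alternative chains of collagen VI, had group means under 1 CPM and were not called.

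The median over the 11 genes for collagen degradation and uptake was 0.57 with hypoxia in wild type and -0.22 between genotypes in hypoxia. Of these, 3 rose with hypoxia in wild type, led by Mmp2, a gelatinase (0.76 ± 0.13), and Mrc2, a receptor that takes up collagen (0.60 ± 0.12). In knockout 4 rose and 1 fell, with Ctsk, a collagen-degrading cathepsin (0.91 ± 0.16), Fap (1.45 ± 0.27) and Timp3, an inhibitor of metalloproteinases (0.43 ± 0.09), leading. In hypoxia 1 was higher in the knockout, Timp3 (0.33 ± 0.09), and 3 were lower, among them Mrc2 (-0.56 ± 0.12) and Mmp9 (-1.15 ± 0.32). Of 12 receptor genes none was called with hypoxia in wild type, and none in the test of the difference of hypoxia effects. In knockout 3 rose and 2 fell, with Itga1, an integrin chain that binds collagen (0.34 ± 0.07), higher and Antxr2 (-0.46 ± 0.09), a cell receptor that binds collagen VI, and Lair1 (-0.69 ± 0.16), an inhibitory leukocyte receptor for collagen, lower. Between genotypes in hypoxia 2 were higher, with Itga10 (0.93 ± 0.21), and 3 lower, with Ddr1 (-0.64 ± 0.11) and Lair1 (-0.74 ± 0.16).

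Of 20 inducers and transcription factors of collagen genes, 2 rose in wild type hypoxia, namely Tgfb3 (0.50 ± 0.09) and Tgfbr2 (0.40 ± 0.08), a ligand and a receptor of the TGF-beta pathway. In knockout Tgfbr2 (0.30 ± 0.08) and Nfyb (0.32 ± 0.09) rose and Smad3 (-0.34 ± 0.11) fell. None of these was called in knockout without the 5 samples with genes of other organs, where Tgfbr2 was 0.18 (adjusted p = 0.417). In hypoxia 2 were higher in the knockout, among them Nfyb, a subunit of the CCAAT-binding factor (0.59 ± 0.09; adjusted p = 0.000344), and 6 lower. Those 6 included the ligand Tgfb2 (-0.55 ± 0.11; adjusted p = 0.00193) and the signal transducer Smad3 (-0.47 ± 0.11; adjusted p = 0.00609). The call of Nfyb between genotypes held in 27 of 28 alternatives, where its lowest log2 fold change was 0.26. It was lost with the GC trend and the 3 samples of low assignment both removed (adjusted p = 0.0523).

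**Figure D5:**
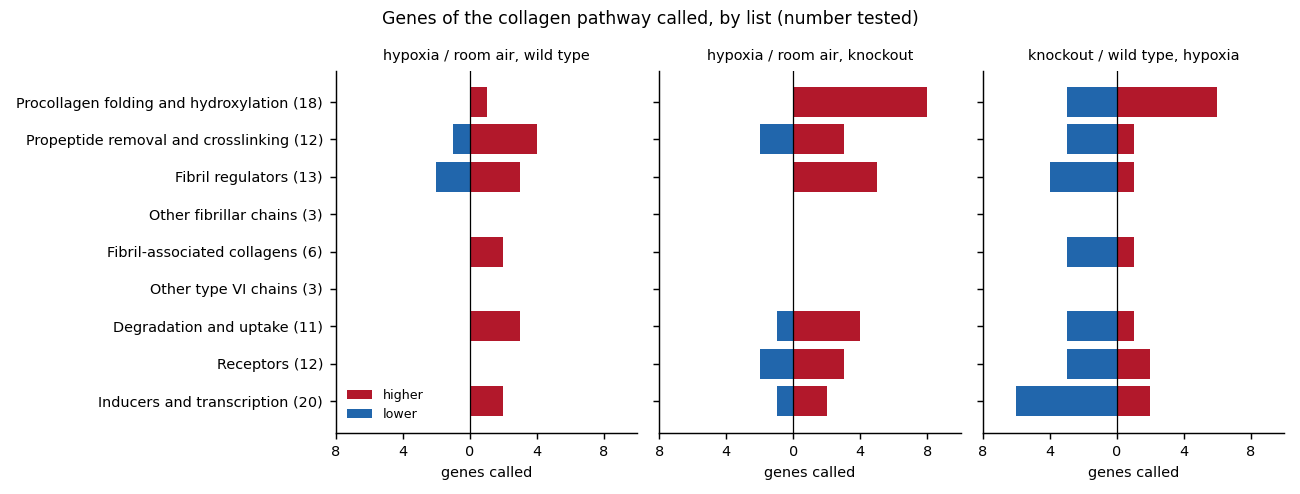
Number of genes (x axis) called higher (red, right) and lower (blue, left) at an adjusted p under 0.05 in 9 lists of collagen pathway genes (y axis, number tested in brackets), for 3 comparisons. Folding and hydroxylation genes were called higher in 8 of 18 cases with hypoxia in the knockout and in 1 of 18 in wild type. Of all genes tested, 7.93% and 2.67% were called higher in these comparisons. The test of the difference of hypoxia effects called 2 of the 18.

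In whole lung, fewer cells of a type and less RNA per cell cannot be told apart. The background of the marker counts here is 23.0% of all genes called between genotypes in hypoxia, and 12.1% called lower. Of 11 markers of alveolar and adventitial fibroblasts, none was higher and 3 were lower in the knockout in hypoxia (Dpt, Scara5 and Npnt). The median log2 fold change of the 11 was 0.02. The summed level of these markers was 2675 to 3290 CPM in wild type hypoxia and 2916 to 3372 CPM in knockout hypoxia, and no marker was at 0. The 5 myofibroblast markers summed to 404 to 568 and 448 to 558 CPM, with 2 higher (Aspn and Cthrc1) and 1 lower (Hhip) in the knockout. The 7 pericyte markers summed to 459 to 615 and 478 to 618 CPM in these groups, with Rgs5 higher and Pdgfrb lower. Of 6 smooth muscle markers 3 were lower (Des, Myh11 and Cnn1), and their sum was 475 to 577 CPM in wild type and 306 to 476 CPM in knockout. The 4 endothelial markers summed to 2769 to 3166 and 3289 to 3578 CPM, with 3 higher and 1 lower in the knockout. The 4 adipocyte markers summed to 44.6 to 95.6 CPM in wild type and 28.0 to 48.7 CPM in knockout hypoxia, with Fabp4 called lower and a median log2 fold change of -1.20. The 4 mesothelial markers summed to 144 to 177 and 101 to 164 CPM, with Lrrn4 called lower and a median of -0.35. Of the 16 markers other than Aspn called here between genotypes in hypoxia, 5 kept their call in all 28 alternatives. The part of these cell types in the collagen differences was not tested.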

How the data were processed

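Total RNA of whole mouse lung went into directional libraries after removal of ribosomal RNA, per the labels' protocols. Reads were processed with Trim Galore, TopHat2 and HTSeq on mm10, per the submitters' processing notes. For versions, annotation and strand setting nothing is given in those sources, so reads of antisense partners cannot be told apart. Raw read counts per gene were deposited. The 5 lines that name no gene were left out; 25.4 to 64.2% of the reads counted in genes or in no feature fell in genes. For 4 numbers, an A and a B library differed far less from each other than other pairs did (chi-square per degree of freedom 2.46 to 3.51 against at least 11.0) and were summed, giving 16 samples from 20 libraries. Counts were fitted with edgeR 4.0.16 (filterByExpr, trimmed mean of M values, quasi-likelihood test, all 4 groups in 1 fit), 15766 genes were tested and 8296 removed as low; the adjusted p threshold was 0.05. The biological coefficient of variation was 15.8%. Ratios used counts plus 0.5. DESeq2 1.42.0, limma 3.58.1 voom, other scalings, the replicate block, the A libraries alone and samples left out were alternatives. After the data were seen, removal of a GC trend and the 3 samples of low assignment were added. The fit was also run on simulated counts, with each gene's expected share equal in all samples apart from changes set in wild type hypoxia. That simulation held no GC trend between samples and no genes of other organs in single samples, so it does not bear on those features. The named genes were the 9 members, Arg2, the 10 genes most like the members, and up to 3 called genes per list and comparison with the smallest p. The members and lists were chosen with earlier results of these data known. Cell type markers named beside the results were chosen the same way.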

Additional observations from a re-analysis of the deposited data

Results flagged for a closer look

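In 60 sets of 4 samples (36 of CPM values and 24 of log2 ratios), 6 held a sample far from the rest of its group by Dixon's test, where chance flags about 1 set in 20. Col5a3 in wild type hypoxia 4 was 4.74 CPM, below the other 3 samples, and that sample also had the high share of Rn45s. Col6a3 in wild type room air 3, the shallowest sample, was 217 CPM and the lowest of its group. The log2 ratio of Col1a1 to Col1a2 was low in sample 4 of both knockout groups, at -1.46 in room air and -1.38 in hypoxia, each the lowest of its group. The log2 ratio of Col3a1 to Col1a1 was 1.29 in wild type room air 2, the lowest there. The log2 ratio of Col5a1 to Col5a2 was -1.60 in knockout hypoxia 1, the highest of its group. That sample also had the group's highest sum of pancreas markers.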

How the results depend on the processing

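Over 28 alternatives in the comparisons of 2 groups and 27 in the difference of effects, the members' results kept direction and side of the threshold in 1140 cases, lost the call in 69, gained it in 19 and changed sign in 23, none of these called. Col6a2 and Col6a3 kept their call between genotypes in hypoxia in all 28 alternatives, Col5a1 in 27, Col1a1 in 20, and Col1a2, Col3a1 and Col6a1 in 18 each. Counts of all genes called were, for hypoxia in wild type (785), 400 with the compared groups only and 477 without the 5 samples with genes of other organs; for hypoxia in knockout (2685), 1035 without those 5; for genotype in hypoxia (3633), 2026 without those 5, 2362 without the 3 samples of low assignment and 2082 with the GC trend also removed. For genotype in room air (12) they were 29 with relative log expression, 113 with upper quartile scaling, 20 with no filter, 1092 with DESeq2, 959 with voom, 4 with the compared groups only, 238 with the replicate block, 207 with A libraries only, 0 without the 5 samples, 26 with the GC trend removed, 1856 without the 3 samples and 602 with both. For the difference of effects (79) they were 474 with DESeq2, 157 with the replicate block, 35 without the 5 samples, 185 with the GC trend removed, 9 without the 3 samples and 24 with both. Counts of members called were, for hypoxia in wild type (1), 0 with the compared groups only, without the 5, without the 3, and without the 3 with the GC trend removed; for hypoxia in knockout (2), 1 with upper quartile scaling, A libraries only or without the 3 samples, and 4 with the replicate block or the GC trend removed; for genotype in room air (0), 1 with DESeq2 or without the 3 samples; for genotype in hypoxia (7), 4 with the compared groups only, with the GC trend removed or without the 3 samples, and 2 with both. Leaving out each sample in turn gave 484 to 1051, 2011 to 3056, 0 to 2198, 2093 to 4337 and 26 to 125 genes in these 5 tests, and 0 to 2, 0 to 3, 0 to 1, 3 to 7 and 0 members. Signs changed for Col6a1 in hypoxia in wild type (-0.0140 without the 3 samples; -0.0536 to 0.0926 over samples left out), Col6a3 there (-0.11 to 0.00211), Col1a1 in hypoxia in knockout (0.0363 without the 3 samples, 0.000345 with both; -0.28 to 0.13), Col1a2 (0.0130 without the 5) and Col5a3 (-0.16 without the 3, -0.000833 with both; -0.16 to 0.42) in genotype in room air, Col5a2 in genotype in hypoxia (-0.16 to 0.0569) and Col5a3 in the difference of effects (-0.27 without the 5; -0.10 to 0.49). Without the 5 samples, 4 ratios in hypoxia in knockout moved: Col1a1 to Col1a2 (-0.05), Col3a1 to Col1a1 (0.10), Col6a1 to Col6a2 (0.39) and Col6a3 to Col6a1 (-0.33). With the replicate block, Col5a3 (0.76, adjusted p = 0.0475) and Col6a3 (-0.29, adjusted p = 0.0480) gained a call in hypoxia in knockout. The cause of these changes was not tested. Same-numbered samples correlated at -0.358 to 0.456 in their deviations from group means (median 0.10; over 0.1 in 12 of 24 pairs), and samples of different numbers at a median of -0.04 (over 0.1 in 17 of 72). No label says what a number marks, so the main fit had no term for the numbers. These correlations do not settle whether the numbers pair samples, and the replicate block was fitted as an alternative. Depth limits Col5a3 most, with 16 counts in the shallowest sample.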
